A study of Danio rerio with 12 samples.

Results

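The genes described are those of the cytosolic ribosomal proteins of the zebrafish, followed through gastrulation in control embryos and in embryos with less Ta and Tbx16. Members were all array features whose gene symbol began with *rpl* or *rps* and a digit, or *rplp* and a digit, with the *rps6k* kinases left out. This gave 67 genes of the 13282 with a symbol on the array, measured by 168 of its 45220 features. Of the members, 40 belong to the large subunit and 27 to the small subunit. For each gene the feature with the highest mean over the 12 arrays stood for the gene. Of the members, 51 had 2 or more features (at most 5) and 16 had 1.

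The ribosome joins a small subunit, which reads the mRNA, to a large subunit, which forms the peptide bond, and nearly every one of its proteins is needed in a fixed number of copies. The mRNAs of ribosomal proteins are among the most abundant in growing cells. They carry a run of pyrimidines at their start (the TOP motif) through which mTOR signaling sets how much of each is translated, so mRNA level and protein synthesis need not move together. An early embryo lives on ribosomes stored in the egg while its own genome takes over mRNA supply, and several zebrafish ribosomal protein mutants develop tumors or anemia.

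Total RNA of whole AB embryos was hybridised in 1 colour to Agilent zebrafish arrays, and values are log2 signals normalized by the authors. Embryos were collected at shield (6 hpf), when gastrulation has just begun, and at 90% epiboly (9 hpf), near its end. Controls carried 0.75 pmol of a standard control MO, and double morphants carried 0.5 pmol of *tbx16* MO with 0.25 pmol of *ta* MO, each injected at the one-cell stage. Each of the 4 groups had 3 arrays, and each array held the RNA of about 200 pooled embryos. Whether the 3 pools of a group were laid by different parents was not stated, so a p value here measures only the spread between samples, which may be technical. In RNA of whole embryos, fewer cells with a transcript and less transcript per cell cannot be told apart. A MO need not lower the RNA of its target. The signal of *tbxta* (the present symbol of *ta*) was higher in double morphants at both stages (log2 changes of 1.19 and 1.81), and that of *tbx16* did not pass the test at either (0.54 and 0.37, limma adjusted p = 0.443 and 0.995). For the stage labels, the early genes *mixl1*, *nanog* and *ndr1* fell from shield to 90% epiboly in controls (log2 changes of -3.02, -2.77 and -2.31), while *tbx6* and *myod1*, genes of the later mesoderm, rose (1.43 and 0.69). These were 3 of 6 early and 2 of 6 late stage markers that passed in the direction of the labels, with 0 passing in the other. All 6 early markers lay below 0, but only 3 of the 6 late markers lay above it (median 0.11), and 2 of the others were lower at an unadjusted p under 0.05. Markers of the enveloping layer (1 of 5 lower, median change 0.32), the yolk syncytial layer (1 of 5 higher, median -0.15) and germ plasm (1 of 3 lower, median -0.85) held 1 gene each that passed with stage in controls. Their part in the results below was not tested.

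Most ribosomal protein genes read high on these arrays. The median of the member means was 13.72 on the log2 scale, at the 97.3 percentile (median over members) of the means of all genes, whose median was 7.92. The signal of a feature also depends on its sequence, so levels are not compared between genes and serve only to show where in the measuring range a member lay. Of the 67 members, 60 had a mean of 12 or more and 51 of 13 or more. Each member was read by its highest feature, so these counts are not set against a share over all features. Counted by feature, 62 of the 168 member features had a mean of 13 to 14 and 25 had 14 to 15. Of all features, 2.86% had a mean of 13 or more. The highest means were those of *rps14* (14.91), the small subunit gene lost in the human 5q- syndrome, of *rpl3* (14.89), whose protein reaches toward the peptidyl transferase centre, and of *rpl11* (14.75), whose free protein binds Mdm2. The lowest were those of *rpl23* (5.50), *rps11b* (5.55) and *rps8b* (9.33). The first 2 of these lay under the limit of 6.56 used for dim features, and the features that stood for them were matched to sequences other than an mRNA record, and both were kept in the counts over 67 members. Without them the change from shield to 90% epiboly in controls was above 0 for 62 of 65, with a median of 0.36.

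Each array had a top value shared by many features, from 52 to 223 of them, and that top lay between 15.59 and 16.25. Only 2 members reached it on any array, *rpl13* and *rpl7a*, both on 1 array, the third of control MO embryos at 90% epiboly, whose top was the lowest (15.59, shared by 223 features). Ties at the top were read as a cap, though no source states one. Under that reading their values there are lower bounds, and so are their stage changes in controls. Their changes of double MO minus control MO at 90% epiboly (-0.25 and -0.08) and their interactions (0.09 and -0.04) are then upper bounds, since the capped value is subtracted. Other members lay close under the top of that array, among them *rpl3* (15.57) and *rps14* (15.43). Whether values so near the top were compressed was not tested.

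From shield to 90% epiboly in control embryos the median member lay higher by a small amount, and few members passed the test singly. The median log2 change of the 67 members was 0.34, against 0.02 for all genes with a symbol and 0.00 for all features. The change was above 0 for 62 of 67 members (92.5%), against 51.8% of all genes. The members moved together from array to array, so counts of signs over members, here and below, are not counts of separate readings. By array, the member median was 13.66 ± 0.31 (SD, n = 3) in shield controls and 13.91 ± 0.12 in controls at 90% epiboly. After Benjamini-Hochberg adjustment over all features in limma, 1 member passed 0.05, *rpl3*, which was higher, and 0 were lower. Over the whole array 12.8% of features passed in either direction and 5.73% as higher, and 1 of 67 members did not exceed that share. At an unadjusted p under 0.05 there were 18 members, all of them higher. For all features this was 25.8% in either direction and 12.7% as higher. The 3 values at 90% epiboly lay wholly above the 3 at shield for 17 members, against 14.3% of all features, and wholly below for 0.

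**Figure D1:**
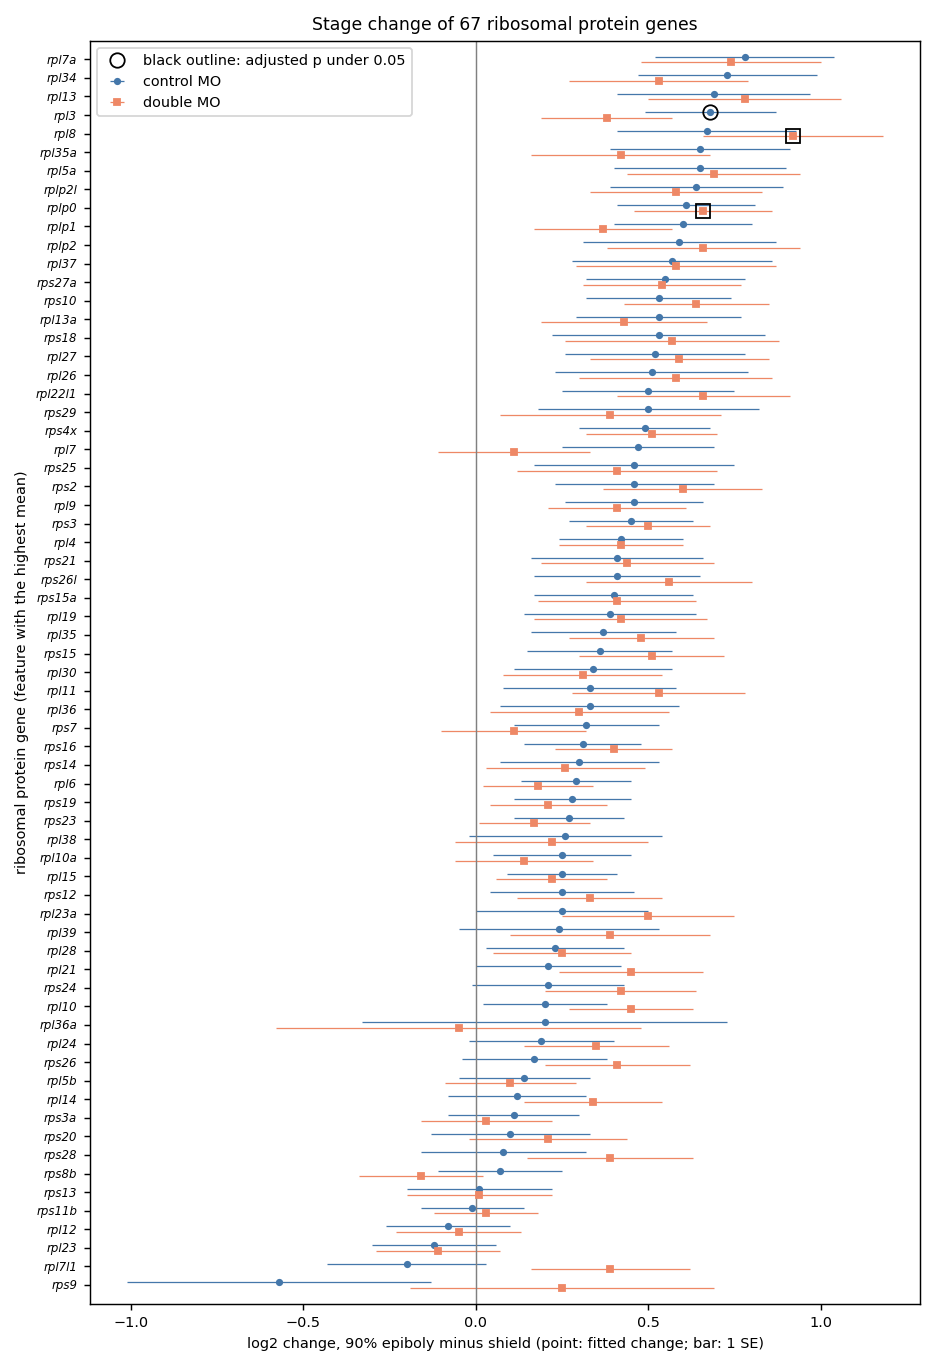
Log2 change from shield to 90% epiboly (x axis) of each of the 67 ribosomal protein genes (y axis, ordered by the change in control MO embryos), in control MO embryos (blue circles) and double morphants (orange squares), with bars of 1 SE and a black outline where the adjusted p was under 0.05. Nearly all points lie to the right of 0, from -0.57 for *rps9* to 0.78 for *rpl7a* in controls, and 3 outlines are drawn, for *rpl3*, *rpl8* and *rplp0*.

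Changes were also set out by signal level. Other features with a mean of 13 to 15, 889 of them, had a median change of 0.00 in controls and -0.04 in double morphants. Member features of every level from 9 up had a positive median. The 27 features with a mean of 9 to 12 had a median change of 0.50 in controls, the 30 between 12 and 13 had 0.41, the 62 between 13 and 14 had 0.31, and the 25 between 14 and 15 had 0.46. The 24 features under 9, 22 of them matched to no mRNA record, had a median of 0.00.

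All 4 features of *rpl3* passed the test in controls. On the feature that stood for the gene the control arrays read 14.79, 14.54 and 14.81 at shield and 15.27, 15.35 and 15.57 at 90% epiboly. The value of 15.57 lay close under its array's top of 15.59. All 3 later values lay above all 3 earlier ones. The log2 change was 0.68 (SE 0.19, 1.6-fold, limma adjusted p = 0.0296). The other 3 *rpl3* features gave 0.73 (adjusted p = 0.0344), 1.10 (0.00154) and 0.75 (0.0182). The call of the brightest feature was lost without the second or the third control array at 90% epiboly (adjusted p = 0.0729 and 0.121) and without the second or the third at shield (0.0981 and 0.0611), and the change then lay between 0.59 and 0.73. In double morphants the same feature read 14.73, 14.15 and 14.74 at shield and 14.75, 15.05 and 14.98 at 90% epiboly. The groups again did not overlap, though 14.74 and 14.75 nearly met, and the change was 0.38 (adjusted p = 0.207), while the 2 dimmest *rpl3* features passed there with 0.69 (0.0241) and 0.73 (0.0222).

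In double morphants the stage change of the members was of like size. Their median was 0.41, against -0.01 for all genes, and it was above 0 for 63 of 67 (94.0%). Of the members, 2 passed as higher, *rpl8* and *rplp0*, and 0 as lower. For all features 13.1% passed in either direction and 6.28% as higher. At an unadjusted p under 0.05 there were 20, all higher, against 27.1% of all features in either direction and 13.6% as higher. The groups did not overlap for 14 members, all higher, against 16.3% of all features.

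*rpl8*, a large subunit protein at the peptidyl transferase centre, read 14.09, 13.75 and 14.03 in double morphants at shield and 14.19, 15.05 and 15.40 at 90% epiboly. The later values all lay above the earlier ones, but they ran over more than 1 log2 unit, with the first array close to shield. The change was 0.92 (SE 0.26, adjusted p = 0.0333). The other 2 *rpl8* features gave 0.34 (adjusted p = 0.23) and 0.23 (0.538), so the call rests on 1 of 3 features. It was lost in the fit on these 6 arrays alone (0.0738), and when the second or the third double morphant array was left out at 90% epiboly (0.113 and 0.149) or at shield (0.101 and 0.0806). In controls the change of the same feature was 0.67 (adjusted p = 0.118).

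The stalk of the large subunit, which recruits the elongation factors, is described here through its 4 *rplp* members. *rplp0*, the base of the stalk, read 14.20, 13.66 and 13.75 in controls at shield and 14.64, 14.28 and 14.52 at 90% epiboly. In double morphants it read 14.16, 13.70 and 14.00, then 14.37, 14.86 and 14.62. The stages overlapped in neither condition. The change was 0.61 in controls (SE 0.20, adjusted p = 0.0617) and 0.66 in double morphants (SE 0.20, adjusted p = 0.0433). The call in double morphants was lost in the fit on its own 6 arrays (0.0588) and when the second or the third array was left out in either double morphant group or in the controls at 90% epiboly (adjusted p from 0.0549 to 0.162), and a call in controls was gained without the first shield control array (0.0231). Its 3 other features with a mean above 9 gave 0.25, 0.51 and 0.59 in controls and 0.44, 0.61 and 0.73 in double morphants, none of them past the threshold. The fifth feature, dim and matched to no mRNA record, gave -0.55 in double morphants. *rplp1*, *rplp2* and *rplp2l*, the stalk's outer proteins and a copy of one of them, had changes of 0.60, 0.59 and 0.64 in controls (adjusted p = 0.0705, 0.196 and 0.109) and of 0.37, 0.66 and 0.58 in double morphants. On the features that stood for them, the 4 *rplp* members ranged from 0.59 to 0.64 in controls and from 0.37 to 0.66 in double morphants. *rpl12*, at the foot of the stalk, gave -0.08 and -0.05. Whether the stalk changed more evenly than other members was not tested.

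**Figure D2:**
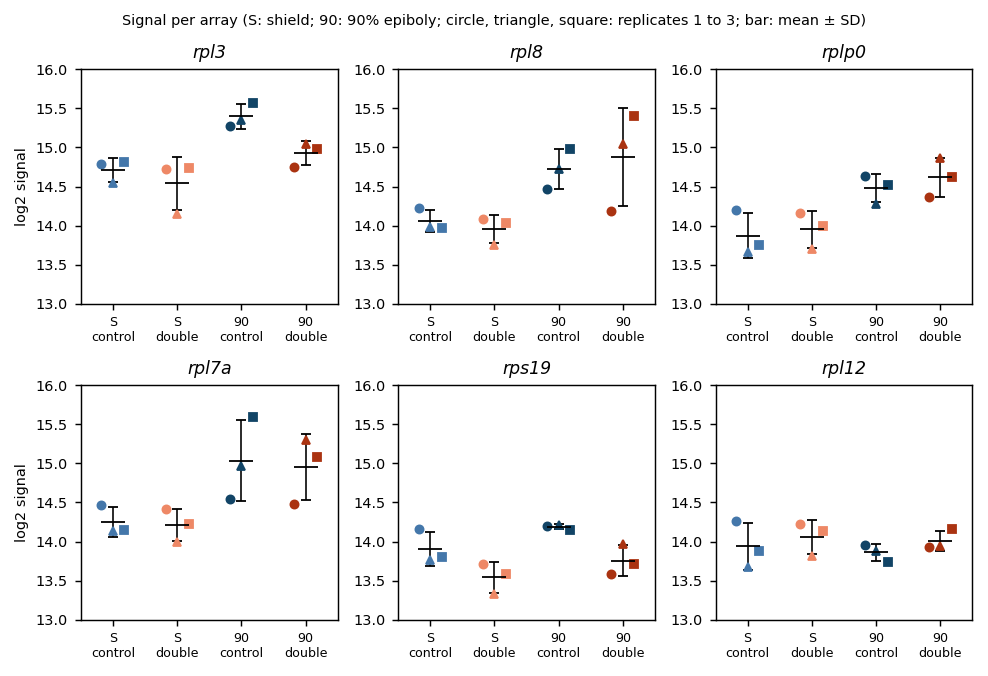
Log2 signal (y axis) on each array of the 4 groups (x axis; S is shield, 90 is 90% epiboly, control and double name the MO) for 6 genes, with replicates 1 to 3 as circle, triangle and square and the mean with its SD as bars. *rpl3* in controls runs from 14.54 to 14.81 at shield and from 15.27 to 15.57 at 90% epiboly, while the 4 groups of *rpl12* overlap between 13.67 and 14.26.

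The largest change in controls was that of *rpl7a*, another large subunit protein, chosen here after its values were seen. Its arrays read 14.47, 14.13 and 14.15 at shield and 14.55, 14.97 and 15.59 at 90% epiboly, the last at the top value of its array. The groups did not overlap, and the change was 0.78 (SE 0.26, adjusted p = 0.0696; without the first control array at 90% epiboly 1.03, 0.0266). Its second feature read 14.09 on the array where the first was at the top, and gave a change of 0.29, and the other features gave 0.41 and 0.24. *rpl13* did much the same. It read 14.50, 14.13 and 14.17, then 14.50, 14.77 and 15.59, a change of 0.69 (adjusted p = 0.143), while its second feature read 14.11 on the array with the top value and changed by 0.28 and the third changed by 0.57 (0.0978, groups apart).

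Members followed for a role of their own changed by modest amounts in controls, and no adjusted p among them was under 0.05 on the feature that stood for the gene. *rpl5a* and *rpl11* encode proteins that bind 5S rRNA and, when free, Mdm2. *rpl5a* read 12.55, 11.91 and 11.75 at shield and 12.83, 12.86 and 12.47 at 90% epiboly. The groups overlapped through the first shield array, with a change of 0.65 (adjusted p = 0.114), and the gene's other feature passed with 0.79 (0.0464). Its duplicate *rpl5b* changed by 0.14 (adjusted p = 0.711), and *rpl11* by 0.33 (0.458).

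Genes whose human counterparts are mutated in Diamond-Blackfan anemia are not listed in full here. Among them *rps19* gave 0.28, *rpl35a* 0.65, *rps26* 0.17 and *rps29* 0.50 (adjusted p between 0.121 and 0.665). *rpl38*, needed in the mouse for the translation of a group of Hox mRNAs, gave 0.26 (0.621). *rps27a*, which encodes a ribosomal protein fused to ubiquitin, gave 0.55 (0.147). *rpl10*, the last large subunit protein to be placed, gave 0.20 (0.562), *rpl10a* 0.25 (0.485), *rpl13a* 0.53 (0.174) and *rps14* 0.30 (0.479). The paralogue *rps26l* gave 0.41 beside 0.17 for *rps26*, *rplp2l* gave 0.64 beside 0.59 for *rplp2*, and *rpl22l1*, a relative of *rpl22*, gave 0.50 (0.232). *rpl7* gave 0.47 (0.191) and its relative *rpl7l1* gave -0.20 (0.652). These differences within pairs were not tested.

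The large subunit had a median change of 0.38 in controls and 0.42 in double morphants, the small subunit 0.31 and 0.40. The difference between the subunits was not tested. A few members had changes near 0. *rpl12*, a large subunit protein at the foot of the stalk, read 14.26, 13.67 and 13.88 in controls at shield and 13.96, 13.88 and 13.74 at 90% epiboly, a change of -0.08 with a 95% interval of -0.47 to 0.32. *rps13*, of the small subunit, gave 0.01 on one feature and 0.60 (adjusted p = 0.0757) on the other, so its 2 features did not give the same picture.

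The members also moved up and down together from one replicate array to the next. At shield the median of the 67 members was 14.01, 13.43 and 13.53 on the 3 control arrays, and 13.72, 13.28 and 13.61 on the 3 double morphant arrays. At 90% epiboly it was 13.79, 13.90 and 14.04 in controls and 13.58, 13.85 and 14.02 in double morphants. The first shield control array was the highest of its group for 63 of 67 members, at a median of 0.33 above the group mean. The second shield double morphant array was the lowest of its group for 61, and the first double morphant array at 90% epiboly was the lowest for 57. The 2116 other features with a mean of 12 or more deviated from their group means by a median of -0.04 to 0.06 per array, and the array medians over all features lay between 7.06 and 7.07. In a mixed set, deviations up and down cancel in the median. These values thus do not show that a shared swing was particular to the members.

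**Figure D3:**
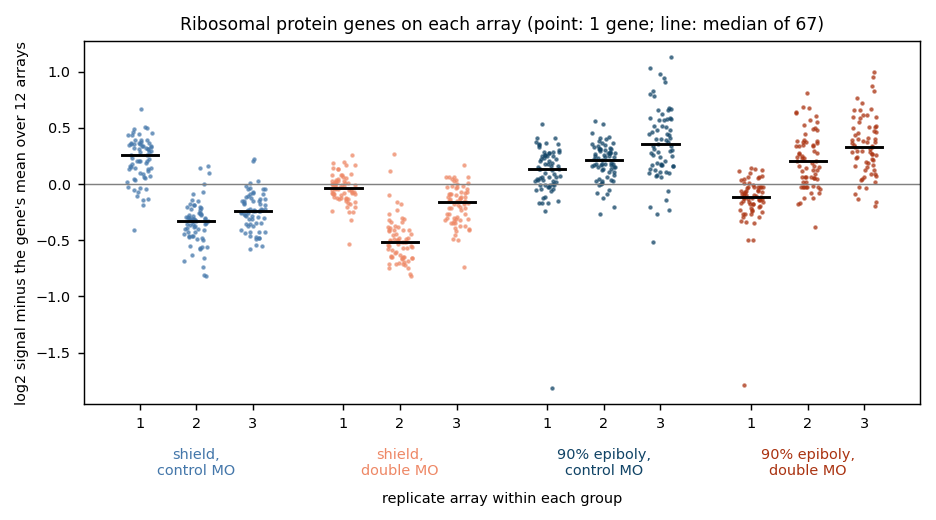
Log2 signal of each of the 67 ribosomal protein genes minus that gene's mean over the 12 arrays (y axis), on each replicate array of the 4 groups (x axis), with 1 point per gene and a line at the median. The points of an array move together, with the first shield control array standing above the 2 others of its group, where the member medians were 14.01, 13.43 and 13.53.

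The number of members that passed moved with single arrays. The mean of the array medians was 13.66 ± 0.31 (SD, n = 3) for shield controls, 13.54 ± 0.22 for shield double morphants, 13.91 ± 0.12 for controls at 90% epiboly and 13.82 ± 0.22 for double morphants at 90% epiboly. The first shield control array alone lay inside the range of the later controls. Within groups the SD of a member was 0.30 at the median, against 0.26 for other bright features. Once each array was centred on the members' median it was 0.16. That centring favours a lower SD of the members by design, and no like centring was made for the other features. Without the first shield control array 11 members passed in the control comparison, with a median change of 0.55, where 13.7% of all features passed. Without the second or the third shield control array, or the second or the third control array at 90% epiboly, 0 passed. In these fits 7.15% to 10.2% of all features passed, and the median of the members lay no lower than 0.22. Without the first double morphant array at 90% epiboly 7 members passed in the stage comparison of double morphants, with a median of 0.54. There 9.1% of all features passed. Over all arrays left out in turn the control count ran from 0 to 11, that in double morphants from 0 to 7, and the medians from 0.22 to 0.55 and from 0.27 to 0.54. The part of RNA quality, handling or developmental age in the shared swing was not tested.

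With each array centred on the members' own median, 0 of 67 passed in any of the 5 comparisons, where 8.38% of all features passed in the stage comparison of controls. The centring takes out the members' shared change by design, and it moves the median of all features in that comparison to -0.25. The 8.38% is thus no neutral share, and the 0 does not show that the members changed alike. At the ends were *rpl7a* with 0.53 above the typical member (adjusted p = 0.221) and *rps9* with 0.82 below it (log2 change of -0.82, 0.211).

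No ribosomal protein gene passed the test in double morphants at either stage. At shield 0 of 67 members passed, where 0.484% of all features did. The median log2 change, double MO minus control MO, was -0.13, against 0.02 for all genes, and it was below 0 for 56 members. At an unadjusted p under 0.05 there was 1 member, which was lower, against 8.96% of all features in either direction and 4.55% as lower, and 2 members had groups that did not overlap, both lower, against 6.02% of all features. At 90% epiboly 0 passed, where 0.705% of all features did. The median change was -0.09, against 0.01 for all genes, and below 0 for 49 members. There were 3 members at an unadjusted p under 0.05, all lower, against 5.65% of all features in either direction and 3.13% as lower. Groups did not overlap for 8, all lower, against 7.02%.

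**Figure D4:**
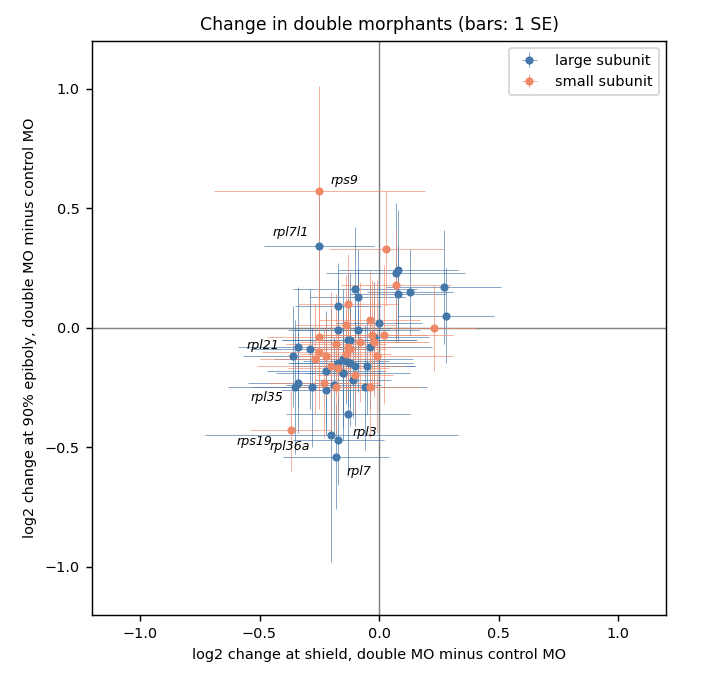
Log2 change of each ribosomal protein gene in double morphants, double MO minus control MO, at shield (x axis) and at 90% epiboly (y axis), with bars of 1 SE and large and small subunit members in blue and orange. The points gather a little below 0 on both axes, with medians of -0.13 and -0.09, and *rps19* lies lowest at shield with -0.37.

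The width of the estimates bounds what could have been missed. The 95% intervals reached 0.49 to either side of the change at the median member. They stayed within 1 log2 unit of 0 for 65 of 67 members at shield and for 64 of 67 at 90% epiboly. The exceptions were *rps9* and *rpl36a* at both stages and *rpl7* at 90% epiboly. Changes smaller than the typical interval could not be resolved gene by gene.

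*rps19* was nearest to a call in both stages. In controls it read 14.16, 13.76 and 13.80 at shield, and in double morphants 13.71, 13.33 and 13.58. All 3 double morphant values lay below the controls, with a change of -0.37 (SE 0.17, adjusted p = 0.554). At 90% epiboly it read 14.20, 14.21 and 14.15 in controls and 13.58, 13.97 and 13.71 in double morphants. The groups were again apart, with a change of -0.43 (SE 0.17, adjusted p = 0.708). At each stage 1 of 29 alternative settings turned the *rps19* change above 0, to 0.12 at shield and 0.18 at 90% epiboly. With single arrays left out the *rps19* change ran from -0.45 to -0.24 at shield and from -0.54 to -0.35 at 90% epiboly. Next at shield were *rpl21* with -0.36 (adjusted p = 0.675) and *rpl35* with -0.34 (0.694), each also above 0 in 1 setting (0.20 and 0.01). With single arrays left out both stayed below 0 (up to -0.15 and -0.16). Next at 90% epiboly were *rpl3* with -0.47 (0.72), whose other 3 features gave -0.14, -0.13 and -0.06, and *rpl7*, a large subunit protein, with -0.54 (0.73). On this feature of *rpl7* the controls read 14.49, 14.29 and 14.70 and the double morphants 13.58, 14.28 and 13.99, all of them under the lowest control. Its other features gave 0.21, -0.31 and 0.37, so the direction turned between features.

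Without the first shield control array the median change at shield was 0.03 in place of -0.13, and without the second shield double morphant array it was 0.00. Shield samples with the same number deviated together, and each of these fits kept the partner of the array left out. The sign thus hung on 1 array in fits that did not hold to the pairs. The main fit did not use the pairs either. At 90% epiboly the median ran from -0.22 without the third double morphant array to 0.08 without the first. In each of these fits 0 members passed. The interaction asked whether the change in double morphants differed between stages. No member passed, where 0.287% of all features did, and no member had an unadjusted p under 0.05, where 3.77% of all features did. The median was 0.03, and the 95% intervals stayed within 1 log2 unit for 57 of 67. The smallest p values were those of *rpl7l1*, *rps9* and *rpl7*, with 0.59, 0.82 and -0.36, each at an adjusted p of 1.0.

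Several values of single members came from 1 array or 1 feature. *rps9*, of the small subunit, read 11.73 on the first control array at 90% epiboly and between 13.17 and 14.02 on the 11 others. Its change in controls was -0.57 with all arrays and 0.15 without that one. The same low value enters its interaction of 0.82 and its place of -0.82 against the typical member. With single arrays left out that interaction ran from 0.10 to 1.22. *rpl36a* read 11.92 on the first double morphant array at 90% epiboly, but 14.74 and 14.58 on the third control array and the third double morphant array of that stage. Its 2 other features lay between 12.55 and 13.94 on all 12 arrays. The second feature of *rps4x* read 11.06 on the same first double morphant array and from 13.06 to 14.23 elsewhere, while the first feature read 14.13 there.

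**Figure D5:**
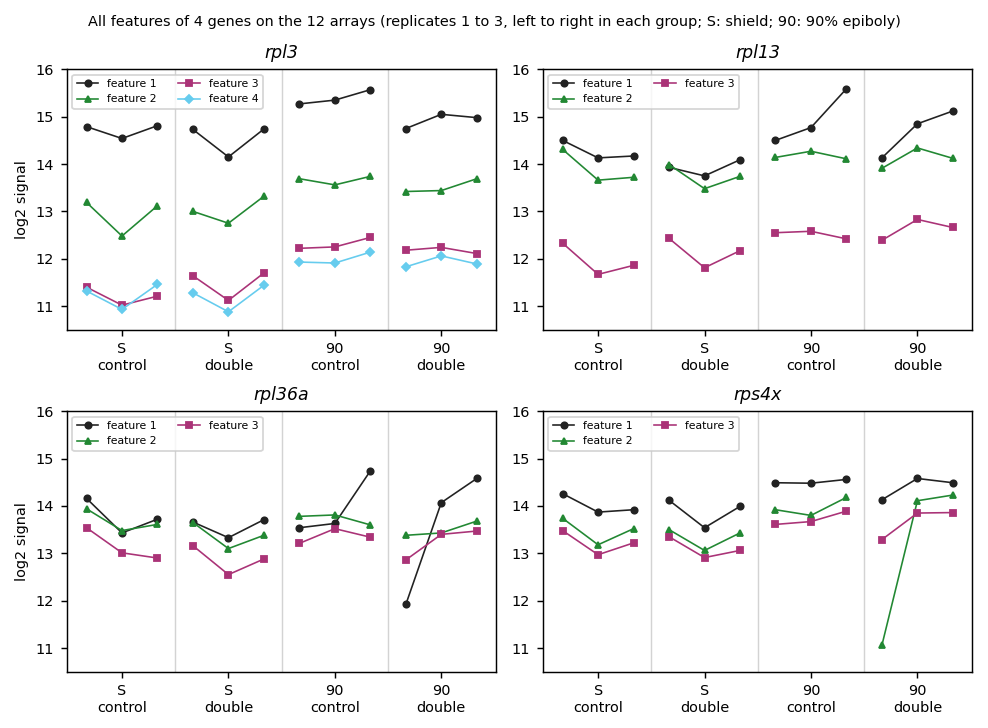
Log2 signal (y axis) of all features of *rpl3*, *rpl13*, *rpl36a* and *rps4x* on the 12 arrays (x axis, replicates 1 to 3 from left to right in each group; S is shield, 90 is 90% epiboly), with 1 line per feature, numbered from the brightest. The 4 lines of *rpl3* all lie higher at 90% epiboly than at shield in both MO groups. The gap between the 2 brightest of them runs from 1.29 to 2.06. The brightest *rpl13* line reaches 15.59 on 1 array where the second reads 14.11, and single low points stand at 11.92 for *rpl36a* and 11.06 for *rps4x*.

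Of the 51 members with several features, 45 had 2 or more with a mean of 9 or more. All such features changed in the positive direction in controls for 41 of the 45. The brightest feature rose more than the second for 24 and less for 21, with a median difference of 0.02. The signal gap between these 2 features was widest on the third control array at 90% epiboly for 9 of the 45 and on the third double morphant array for 10. The median gap was 0.85 and 0.77 there, and between 0.45 and 0.59 on the 10 other arrays. On those 2 arrays the gap was also the narrowest for 7 and 2 of the 45. It was narrowest most often, for 12, on the second double morphant array at 90% epiboly. Over all 168 features 6 passed in controls and 6 in double morphants, all higher, and 0 in the comparisons of MO or the interaction. Over the whole array 5.73% and 6.28% of features passed as higher, a share that these counts did not exceed. Of the 6 in controls, 4 were features of *rpl3*. Besides those named above, a feature of *rps26l* passed with 0.91 in controls (adjusted p = 0.0137). In double morphants a feature of *rps2* passed with 0.74 (0.0499) and a dim one of *rps14* with 0.65 (0.0126). The features of 1 gene differed most in their stage change for *rpl15* (by 1.33), *rpl37* (1.01) and *rpl36* (0.94). In each the outlying feature was the dimmest. For *rpl15* the 3 features on its mRNA record rose by 0.25, 0.26 and 0.53 and the fourth, on a cDNA record, gave -0.80.

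Some ribosomal proteins have names outside the rule. *rpsa*, a small subunit protein that is also known as a laminin receptor, read 14.69, 14.62 and 14.75 in controls at shield and 15.10, 15.35 and 15.59 at 90% epiboly, and 14.65, 14.17 and 14.62, then 14.82, 15.64 and 15.76, in double morphants. The stages did not overlap in either. The values 15.59 and 15.76 are the top values of their arrays, so both changes are lower bounds under a cap. Its change was 0.65 in controls (adjusted p = 0.0911) and 0.93 in double morphants, where it passed (0.0213), though the call was lost when either of its 2 higher double morphant arrays of 90% epiboly, or the second at shield, was left out (up to 0.102). Of its 3 other features, 1 passed in controls with 0.59 (0.0444) and another in double morphants with 0.98 (0.0183). *rack1*, a signaling scaffold on the small subunit, gave 0.45 and 0.70, *faua* 0.70 and 0.77 and *faub* -0.51 and -0.41, with 0 passing. For 11 further genes the array held an older symbol. Their median change in controls was 0.11, 0 passed, and 9 lay above 0. Among them *rps6*, whose phosphorylation reports mTOR activity, gave 0.53 (adjusted p = 0.0793) and *rpl22* gave 0.52 (0.248). The other *rps6* features gave 0.19, 0.54 and 0.46 in controls, none past the threshold. In double morphants the least bright of them passed with 1.16 (limma adjusted p = 0.0121), with 1 low shield array (11.50). The feature that stood for *rps6* gave 0.48 there (0.108), and the remaining ones 0.33 and 0.26. At an unadjusted p under 0.05, 1 of the 11 was higher (*rps6*) and 2 were lower, against 25.8% of all features in either direction. The lower ones were *rps27.2* with -1.31 (adjusted p = 0.155) and *rps27l* with -0.66 (0.191). *rps27.2* was dim, with 1 high shield control array (8.77).

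Other genes of translation were counted beside the members in the same fit, where 12.8% of all features passed with stage in controls, 5.73% as higher. No test set these lists apart from other genes. Mitochondrial ribosomal proteins, which build the ribosome of that organelle, had a median change of 0.14 in controls, with 3 of 68 higher and 1 lower. *mrpl11* rose by 0.86 (adjusted p = 0.0235), *mrpl16* and *mrps5* each by 0.73 (0.0192 and 0.0363), and *mrps18a* fell by 0.52 (0.0356). Elongation factors and other genes with TOP mRNAs had a median of 0.19, with 2 of 21 higher and 0 lower. *eef1db*, a subunit of the exchange factor of elongation factor 1, rose by 1.56 (0.000446), and *pabpc1b*, a poly(A)-binding protein, by 0.64 (0.0362). Initiation factors had a median of 0.15, with 3 of 51 higher and 6 lower. *eif2s1b*, the alpha subunit of the factor that brings the initiator tRNA, rose by 1.28 (0.0012) and *eif2b3* by 0.72 (0.0147). *eif3eb* fell by 1.69 (0.000839) and *eif1b* by 1.44 (0.0109).

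The next lists were counted in the same comparison, where 12.8% of all features passed in either direction and 5.73% as higher. Ribosome biogenesis genes had a median of 0.02, with 1 of 80 higher (*nol10*, 0.75, adjusted p = 0.0102) and 2 lower. *pwp2h*, of the small subunit processome, fell by 1.26 (0.00144) and *bop1*, of large subunit maturation, by 0.90 (0.00745). Regulators of ribosomal protein translation had a median of -0.19, with 0 of 22 higher and 3 lower. *tsc1a*, an inhibitor of mTOR complex 1, fell by 2.43 (0.00215), *rps6ka3a*, a kinase that acts on *rps6*, by 1.88 (7.14e-05), and *eif4ebp3l*, of the 4E-BP family that holds back cap-dependent initiation, by 0.77 (0.00823). Genes of the p53 response, which free ribosomal proteins can set off, had a median of -0.50, with 0 of 13 higher and 2 lower. *mdm2* fell by 1.19 (0.00079) and *casp8* by 1.06 (0.00736).

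In double morphants 2 of the 80 biogenesis genes passed at 90% epiboly and 1 at shield, all lower, against 0.705% and 0.484% of all features in either direction. *ebna1bp2*, a nucleolar factor of large subunit assembly, read 12.13, 11.37 and 11.83 in controls at shield and 9.91, 9.67 and 9.98 in double morphants. At 90% epiboly it read 11.72, 11.91 and 12.23 in controls and 9.58, 9.96 and 10.19 in double morphants. The groups lay more than 1 log2 unit apart at both stages. It fell by 1.93 at shield (SE 0.22, adjusted p = 0.000659) and fell by 2.04 at 90% epiboly (SE 0.22, adjusted p = 0.000195). Its second feature fell by 1.71 at shield (0.0118) and fell by 1.85 at 90% epiboly (0.00378). It passed with each of the 12 arrays left out in turn (adjusted p up to 0.00646 at shield and 0.00192 at 90% epiboly). *ddx56*, a nucleolar helicase of the large subunit pathway, fell by 0.92 at 90% epiboly (adjusted p = 0.0272) and had -0.67 at shield (0.187). Its call was lost without any 1 of the 6 arrays of 90% epiboly (up to 0.173). From the brighter to the dimmer, its other features gave -0.71 (0.285), -0.89 (0.0324), -0.68 (0.124) and -0.14 at 90% epiboly. At shield they gave -0.75, -0.60, -0.61 and 0.62, none past the threshold.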

How the data were processed

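The authors hybridised dye-labelled RNA to Agilent zebrafish arrays (version 3 of the design) and deposited log2 values for 45220 features on 12 arrays, already normalized between arrays. How they corrected background and normalized, and with which software, is not given in the sources used here, and no scanner files were used. With 3 arrays per group, the number of arrays limits the precision. No feature was filtered.

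Of the features, 26855 had 1 gene symbol, 0 several and 18365 none. Members were chosen on the array's symbols. Current symbols came from a RefSeq gene table, for 24108 features through their accession (137 of the 168 member features). No genome was used, so no coordinates or sequences are given.

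In limma 3.58.1 (R 4.3.3), lmFit estimated 1 mean for each of the 4 groups from the 12 arrays together, and contrasts.fit and eBayes gave two-sided tests with 8 residual and 5.32 prior degrees of freedom. The comparisons were 90% epiboly minus shield within each MO group, double MO minus control MO within each stage, and the interaction; they share samples. Benjamini-Hochberg adjustment covered the 45220 features, and a feature was called at 0.05. Intervals of 95% used the moderated SE. The fit was tested on simulated data. Tables and plots used Python 3.11.15, pandas 2.3.3 and matplotlib 3.10.9.

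Members and lists were chosen with earlier results of these data known, so medians and counts over members carry no test. Named members were those past the threshold in a comparison (at most 5 per direction) or, where none passed, the 3 with the smallest p. To these were added the 3 highest and 3 lowest in mean, the 3 whose features differed most, members with a role of their own and pairs of paralogues. Genes of the other lists were named if among the 2 largest changes in each direction past the threshold in controls. Outside these rules, *rpl7a*, *rpl12*, *rpl13*, *rpl36a*, *rplp1*, *rps2*, *rps4x*, *rps9*, *rps13*, *eif4ebp3l*, *mrps5* (tied with *mrpl16*), *ebna1bp2*, *ddx56*, *rpsa*, *rack1*, *faua* and *faub* were named after their values were seen. So were *rps27.2* and *rps27l*.

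Shield samples with the same number deviated together (correlations across features of 0.34, 0.35 and 0.30), a pairing taken from the values, since no source states one. At 90% epiboly (0.20, 0.08 and 0.41) and between stages the numbers were not taken to pair samples. Alternatives covered normalization, dim features, the variance model, array weights, the methods' t-test, the feature per gene, the membership, the replicate block and each array left out.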

Additional observations from a re-analysis of the deposited data

How the results depend on the processing

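The median stage change stayed positive in both MO groups, and 0 members passed in the MO comparisons and the interaction, under each alternative that gave a value. In controls, against 1 of 67 members passing, the count was 2 with cyclic loess (12.7% of all features) and with features averaged per gene (12.1% of all entries so averaged). With the second brightest feature it was 2 of the 45 members that had one (12.8% of all features). It was 3 with the feature of the lowest mean (12.8% of all features) and 16 with array weights, where 20.0% of all features passed. It was 14 without the first array of both shield groups, where 15.4% of all features passed. It was 0 without the third array of both groups at 90% epiboly (5.68% of all features) and with the methods' t-test after adjustment (0.283% of all features). At a share that small, 0 of 67 is no loss particular to the members. It was also 0 with arrays centred on the members, which takes out their shared change by design. In double morphants, against 2, the count was 13 with array weights (16.5% of all features). It was 10 without the first array of both shield groups (16.2% of all features). It was 0 on the 6 arrays alone, with features averaged, with the second brightest feature, with the methods' t-test, with arrays centred on the members, and without the third array of both groups at 90% epiboly. The cause of these shifts was not tested. With single arrays left out the counts ran from 0 to 11 in controls and from 0 to 7 in double morphants. Before adjustment the methods' t-test gave 8 and 2 members. The like share of all features was not counted, so these 2 counts are not read further. *rplp0* in double morphants changed sign on its dimmest feature (-0.55). With the replicate number as a block 1 and 2 members passed in the stage comparisons, and the block changed no call of a named member. In these comparisons the block tied arrays of the same number across stages, where the numbers were not taken to pair samples. The 2 counts are thus no check on a pairing. In the MO comparisons and the interaction the block was set within each stage. Leaving out a pair of arrays, the second brightest feature, members under another array symbol and centring on the members were chosen after the data were seen. Leaving out members within 1 log2 unit of the highest value removed 0 members. Signal over background was not known for these arrays.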
